A study of Mus musculus with 8 samples.

Results

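The genes described here encode the nuclear subunits of respiratory complexes II, III, IV and V, measured in the cervical spinal cord of mice given the neurotoxin MPTP with or without needling. Members were the genes whose symbol is Sdha, Sdhb, Sdhc or Sdhd, or starts with Uqcr, Cox4, Cox5, Cox6, Cox7, Cox8 or Atp5, and for which the array annotation gives a probe set (a group of probes read as 1 value) of that symbol alone. The rule found 46 genes among 19938 with such a probe set, and 45 were among the 16026 genes bright enough to test. These were 4 genes of complex II, 8 of complex III, 16 of complex IV and 17 of complex V. The 16 of complex IV comprised 10 ubiquitous subunits, 3 muscle isoforms (Cox6a2, Cox7a1 and Cox8b) and 3 isoforms of other tissues (Cox4i2, Cox6b2 and Cox8c). Cox7b2, a testis isoform, read 3.77 to 4.36 and its mean of 4.05 lay below the limit of 4.30 for testing. Cox7c was represented only by probe sets that carry 2 symbols and was not used. All 46 symbols matched the RefSeq symbol of the same gene identifier, and 28 of the 45 tested lay at or above the 90th percentile of signal.

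Total RNA came from male C57BL/6 mice, 6 weeks old at the start, and was hybridised to 8 whole-transcript arrays, 2 for each of 4 groups. Control mice received saline daily for 4 weeks, and the mice of the other 3 groups received MPTP at 20 mg/kg every 24 h over the same period, which the labels describe as a chronic model of parkinsonism. One of these groups was given MPTP only, another was also needled bilaterally at the acupoints GB34 and LR3, and another at non-acupoints on both hips, in 14 sessions 48 h apart. The control mice had no needling, and no group was needled without MPTP. The labels number the mice 1 and 2 in each group and leave unsaid whether RNA of several mice was pooled for an array. The p-values below therefore reflect only how far these samples differ from each other, and that spread may be technical.

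The respiratory chain passes electrons from NADH and succinate to oxygen and uses the energy to pump protons across the inner mitochondrial membrane. Complex II oxidises succinate and feeds ubiquinone, complex III passes the electrons on to cytochrome c, complex IV reduces oxygen, and complex V lets the protons return while making ATP. MPTP is turned into a toxic ion in glia that blocks complex I, which lies outside the genes described here. Several complex IV subunits come in pairs, with a ubiquitous form and a form used in heart and skeletal muscle, and a number of the muscle forms are also made in brown fat.

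Values are log2 signals. In each list of 8 arrays the order is control 1 and 2, MPTP 1 and 2, acupoint 1 and 2, and non-acupoint 1 and 2. Differences were estimated with limma from 1 mean per group, with an intensity trend in the variance. They were tested two-sided and Benjamini-Hochberg adjusted over all 16026 genes, and a gene with an adjusted p under 0.05 is called. Errors are the model's standard errors (SE) with n = 2 arrays a group. The comparison of the 3 MPTP groups with control takes the mean of the 3 group means, and it shares the control and MPTP arrays with the comparison of MPTP alone.

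Markers of neurons and oligodendrocytes were high on all arrays. The mean of 5 neuronal markers was 10.83 to 11.19 over the arrays, and oligodendrocyte markers read 11.2 to 11.5. The cord position genes went in part against the cervical label: Hoxd10 and Hoxc10, which mark lumbar cord, read 7.64 to 9.07 and 7.06 to 7.83 on 7 arrays, and 4.58 and 5.18 on non-acupoint replicate 1, which stood apart. The cervical and brachial gene Hoxc5 read 6.31 to 7.23 over all 8. Without that array, 10 members were called with MPTP alone, 14 in the 3 MPTP groups and 0 in each needling comparison. In neuronal and astrocyte markers and in probe sets without a gene symbol, both control arrays lay apart from the others. This touches each comparison with control below. The neuronal mean was 10.85 and 10.83 on the control arrays and at least 11.10 on the rest, the mean of 4 astrocyte markers was 9.60 and 9.41 against 10.07 to 10.26, and probe sets without a gene symbol had a median of 4.75 against 4.25 to 4.39. The correlation between arrays was 0.988 for the control pair and 0.988 for control replicate 1 and acupoint replicate 1. It was 0.985 for the acupoint pair and 0.991 for acupoint replicate 1 and MPTP replicate 2. Transcripts of skeletal muscle were high on both control arrays and on acupoint replicate 1. The mean of 15 skeletal muscle markers was 7.48, 8.94, 5.86, 5.80, 6.99, 5.63, 5.56 and 5.94, and all 15 had a negative difference between the MPTP groups and control, with 13 called lower. The mean of 7 slow muscle and heart markers stayed at 5.13 to 5.43 on every array. Their single differences in the 3 MPTP groups ran from -0.55 to 0.25, with 1 of the 7 called lower. In bulk tissue, fewer cells of a type and less RNA per cell cannot be told apart, and the part of these differences in the results below was not tested.

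Across the complexes, the members did not move as a block. With all 8 arrays as deposited, some were called higher and more were called lower in each comparison with control. That excess of lower calls was not kept when control replicate 2 and acupoint replicate 1 were both left out. The medians in the 3 MPTP groups were 0.20 (complex II), -0.16 (III), -0.09 (ubiquitous IV) and -0.01 (V). Without control replicate 2 and acupoint replicate 1, they were 0.26, 0.001, 0.03 and 0.07, set against a single control array. With MPTP alone, 12 of 45 members (26.7%) were called against 16.8% of all genes, 5 higher (background 13.7%) and 7 lower (background 3.1%). In the 3 MPTP groups together, 16 of 45 (35.6%) were called against 25.2% of all genes, 6 higher (background 19.9%) and 10 lower (background 5.35%). The 16 included all 12 called with MPTP alone. The median difference of the members was -0.01 with MPTP alone and -0.06 in the 3 MPTP groups, where the median over all genes tested was 0.06 in both. The 2 control and 6 MPTP arrays did not overlap for 17 members (37.8%), 6 higher (background 26.1%) and 11 lower (background 10.9%), against 36.9% of all genes. With MPTP alone the 2 and 2 arrays did not overlap for 30 members (66.7%), 15 higher (background 41.9%) and 15 lower (background 22.1%), against 64% of all genes.

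How the arrays are scaled moved this split. Of the members called in the 3 MPTP groups, 6 were higher and 10 lower on the deposited values, 5 and 14 after another quantile normalization, 2 and 21 after cyclic loess, and 9 and 4 after centring the arrays on their medians. With MPTP alone the split was 5 and 7 on the deposited values, 4 and 7 after quantile normalization, 1 and 11 after cyclic loess, and 8 and 2 with centring. The centring also moved the median over all genes from 0.06 to 0.21 in the 3 MPTP groups and from 0.06 to 0.22 with MPTP alone. Other genes moved with the scaling as well. In the 3 MPTP groups, 48.4% of the brightest 10% of genes tested were called higher and 4.05% lower on the deposited values. These shares were 37.7% and 7.99% after quantile normalization, 28.1% and 13.7% after cyclic loess, and 66.5% and 0.87% after centring. Every called member kept its direction under all 3 scalings, but calls were lost. In the 3 MPTP groups, Uqcrc2 lost its call after quantile normalization. Atp5a1, Sdhd, Uqcrc1 and Uqcrc2 lost it after cyclic loess, and Atp5e, Atp5j2, Atp5md, Atp5mpl, Cox4i1 and Cox6b1 after centring. With MPTP alone, Atp5a1 lost its call after quantile normalization, Atp5a1, Sdha, Sdhd and Uqcrc1 after cyclic loess, Atp5j2, Atp5md, Cox6b1 and Uqcr11 after centring, and Cox6a2 under all 3.

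Set beside other bright genes, members were less often called higher, a comparison chosen after the values were seen. Among the brightest 10% of genes tested (1603 genes), 48.4% were called higher and 4.05% lower in the 3 MPTP groups, with a median difference of 0.21. The 28 members in that range had 4 called higher (14.3%) and 5 lower (17.9%), with a median of -0.03. After cyclic loess the shares called higher were 28.1% of the 1603 genes and 1 of the 28 members, and after centring 66.5% and 7 of 28. Leaving out control replicate 2 gave medians of 0.19 over the 1603 genes and 0.02 over the 28 members. With acupoint replicate 1 left out as well, the medians were 0.21 and 0.05. In that fit more of the 28 members were called higher than lower, and both fits have a single control array. With MPTP alone the shares were 37.4% higher and 2.74% lower over the 1603 genes, and 3 higher and 3 lower among the 28 members. The members called higher were Sdha and Sdhd of complex II, Uqcrc1, Uqcrc2 and Uqcrfs1 of complex III and Atp5a1 of complex V. The members called lower were Uqcrq and Uqcr11 of complex III, Cox4i1, Cox6b1 and Cox6a2 of complex IV, and Atp5e, Atp5j2, Atp5l, Atp5md and Atp5mpl of complex V. The plot of differences from control shows both sets by complex.

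**Figure D1:**
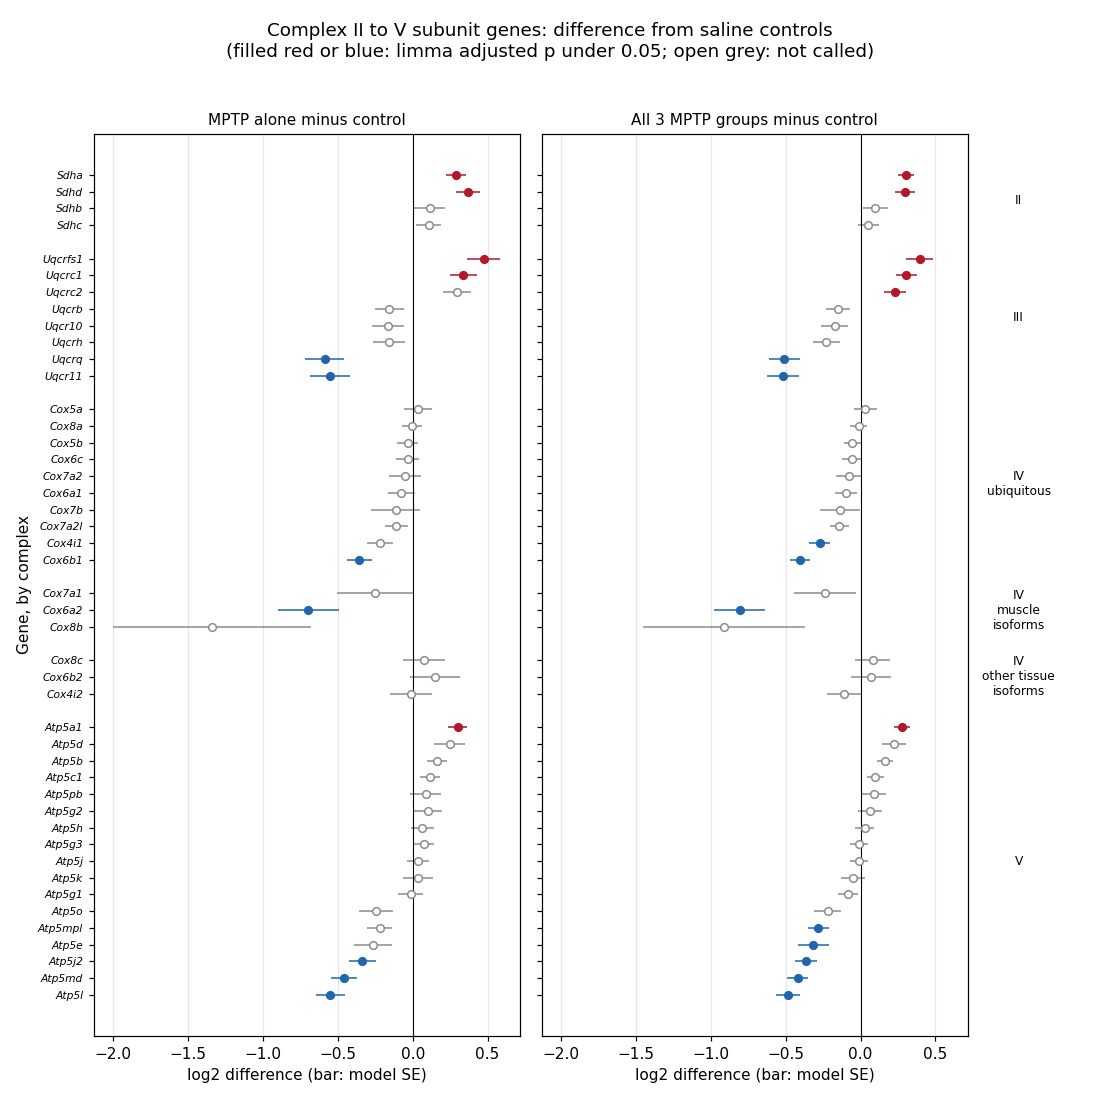
Difference from the saline controls for each of the 45 tested members, in log2 units on the horizontal axis, for MPTP alone (left) and the mean of the 3 MPTP groups (right); genes are on the vertical axis by complex, points are estimates and bars the model's SE. Filled red points are called higher (5 and 6 genes), filled blue points lower (7 and 10 genes) and open grey points are not called; Cox8b has the widest bar.

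The start regions of 2 members called higher and 2 called lower are shown here as examples of windows with either of a pair of short motifs, picked from 7 searched after the calls were known. The sequences are the 130 bases before the annotated start, from RefSeq on build GRCm38.p6, each read 5′ to 3′ on its gene's strand, which is the minus strand for all 4. Capitals mark GCGCA and GCGC with any 1 base between them, the core of the motif bound by nuclear respiratory factor 1 (NRF1), and CCGGAAG, a core bound by ETS factors such as GABP, on either strand. Sdha lies at chr13:74350241-74350370, Sdhd at chr9:50603850-50603979, Uqcr11 at chr10:80406822-80406951 and Cox6b1 at chr7:30626115-30626244.
Sdha: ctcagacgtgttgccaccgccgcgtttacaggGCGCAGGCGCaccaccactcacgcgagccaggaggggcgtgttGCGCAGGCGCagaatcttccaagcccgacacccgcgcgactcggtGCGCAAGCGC
Sdhd: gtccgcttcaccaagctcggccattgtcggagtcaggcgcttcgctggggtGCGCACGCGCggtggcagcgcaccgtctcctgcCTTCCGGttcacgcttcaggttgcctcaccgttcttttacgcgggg
Uqcr11: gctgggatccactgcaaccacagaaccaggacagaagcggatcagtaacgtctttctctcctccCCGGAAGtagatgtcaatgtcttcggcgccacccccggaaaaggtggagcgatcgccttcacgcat
Cox6b1: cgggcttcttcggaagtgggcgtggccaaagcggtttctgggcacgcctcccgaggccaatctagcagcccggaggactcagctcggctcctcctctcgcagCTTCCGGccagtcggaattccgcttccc

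A RefSeq window of 300 bases, 250 before the start and 50 after it, was given for 35 of the 46 members. The NRF1 letters stood in the windows of 10 of these 35 genes (28.6%), against 4.60% of 32851 windows of the same length. Sdha held them 3 times, starting 98, 55 and 10 bases before the start, and Sdhd held them 79 bases before it. Of the members called higher in the 3 MPTP groups, 3 of the 4 with a window held them (Sdha, Sdhd and Uqcrc1). Of the members called lower, with the muscle isoforms apart, 0 of 6 did. The ETS letters stood in 13 of 35 member genes (37.1%), against 8.86% of all windows. They stood in 5 of the 6 members called lower (Atp5e, Atp5l, Atp5md, Cox6b1 and Uqcr11) and in 1 of the 4 called higher (Sdhd). Among the 23 members not called, which include the untested Cox7b2, 7 held each motif. Of 5 other sequences searched on both strands, YY1 (AAGATGGC) stood in 8.57% of member genes and 2.75% of all windows, ERR (AAGGTCA) in 14.3% and 4.72%, SP1 (GGGCGG) in 14 of the 35 genes and 35.7% of windows, MEF2 (CTA and TAG with any 4 bases between them) in 2.86% and 3.69%, and the E-box CANNTG in 68.6% and 72.3%. These shares rest on 4 and 6 called genes and were not tested. A match describes the letters in the window and no binding was measured.

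In complex II, the flavoprotein Sdha and the membrane anchor Sdhd rose and the other pair of subunits was not called. Sdha, which carries the FAD that oxidises succinate, read 11.39, 11.38, 11.68, 11.67, 11.65, 11.71, 11.76 and 11.65 over the 8 arrays. All 6 MPTP arrays lay above both control arrays and the 2 controls differed by 0.01. Sdha was 1.22-fold higher with MPTP alone (log2 difference 0.29, SE 0.065, limma adjusted p = 0.0173, n = 2 and 2) and 1.23-fold higher in the 3 MPTP groups (0.30, SE 0.053, limma adjusted p = 0.0039). Sdhd, which helps hold the heme and the ubiquinone site in the membrane, read 9.27, 9.19, 9.62, 9.58, 9.50, 9.52, 9.56 and 9.38. Its arrays did not overlap either, and it was 1.29-fold higher with MPTP alone (0.37, SE 0.082, limma adjusted p = 0.0171) and 1.23-fold higher in the 3 MPTP groups (0.30, SE 0.067, limma adjusted p = 0.0115). The iron-sulphur subunit Sdhb read 9.10, 9.36, 9.30, 9.38, 9.19, 9.38, 9.36 and 9.37, with control replicate 2 inside the range of the MPTP arrays and replicate 1 below it. The other anchor, Sdhc, read 9.37, 9.31, 9.43, 9.46, 9.35, 9.43, 9.43 and 9.25. For Sdhb and Sdhc the differences in the 3 MPTP groups were 0.10 and 0.05, and control and MPTP arrays overlapped.

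In complex III, Uqcrfs1, Uqcrc1 and Uqcrc2 rose and Uqcrq and Uqcr11 fell in the 3 MPTP groups. Cyc1, the cytochrome c1 of the complex, which the symbol rule does not take in, differed by 0.03 with MPTP alone and -0.02 in the 3 MPTP groups and was not called. Uqcrfs1, the Rieske iron-sulphur protein that takes electrons from ubiquinol, read 7.90, 7.88, 8.40, 8.33, 7.97, 8.30, 8.37 and 8.34. Its 6 MPTP arrays all lay above the controls, acupoint replicate 1 by the least. It was 1.39-fold higher with MPTP alone (log2 difference 0.48, SE 0.11, limma adjusted p = 0.0198) and 1.31-fold higher in the 3 MPTP groups (0.40, SE 0.090, limma adjusted p = 0.0121). Uqcrc1, a core protein on the matrix side, read 10.76, 10.92, 11.20, 11.15, 11.02, 11.20, 11.22 and 11.07, again with no overlap. It rose by 0.34 with MPTP alone (SE 0.087, limma adjusted p = 0.0289) and by 0.31 in the 3 MPTP groups (SE 0.071, limma adjusted p = 0.0132). The partner core protein Uqcrc2 read 11.22, 11.31, 11.57, 11.55, 11.25, 11.54, 11.54 and 11.53. Acupoint replicate 1 lay between its 2 control arrays. Uqcrc2 was called in the 3 MPTP groups (0.23, SE 0.074, limma adjusted p = 0.048) and not with MPTP alone (0.30, adjusted p = 0.0546). Its call was kept in 7 of 18 alternative settings, in which its adjusted p ranged from 0.00116 to 0.377.

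Uqcrq, a small membrane subunit near the cytochrome b protein, read 9.31, 9.67, 8.92, 8.88, 9.21, 8.94, 8.91 and 9.03. The controls were highest, and acupoint replicate 1 came nearest to them. Uqcrq fell 1.5-fold with MPTP alone (log2 difference -0.59, SE 0.13, limma adjusted p = 0.0158) and 1.42-fold in the 3 MPTP groups (-0.51, SE 0.10, limma adjusted p = 0.00786). Uqcr11, the smallest subunit of the complex, read 8.16, 8.51, 7.86, 7.69, 7.97, 7.75, 7.86 and 7.75, with no overlap between control and MPTP arrays. It fell 1.47-fold with MPTP alone (-0.55, SE 0.13, limma adjusted p = 0.0227) and 1.43-fold in the 3 MPTP groups (-0.52, SE 0.11, limma adjusted p = 0.00852). Another probe set of Uqcr11 gave -0.28 in the latter comparison, the widest spread among the 12 members with several probe sets. The other small subunits Uqcrb, Uqcrh and Uqcr10 were not called, with differences of -0.15, -0.23 and -0.17.

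On the probe sets used, 9 of the 10 ubiquitous subunits of complex IV had a negative difference in the 3 MPTP groups, of which Cox6b1 and Cox4i1 fell. Their median was -0.09 on the deposited values and 0.06 after centring the arrays on their medians, so the direction of the group depends on the scaling. Cox6b1, which lies on the intermembrane side where 2 complexes join, read 10.56, 10.78, 10.32, 10.30, 10.24, 10.30, 10.25 and 10.16. All 6 MPTP arrays were lower than both controls. Cox6b1 fell 1.28-fold with MPTP alone (log2 difference -0.36, SE 0.084, limma adjusted p = 0.0210) and 1.32-fold in the 3 MPTP groups (-0.40, SE 0.069, limma adjusted p = 0.00345). Cox4i1, the largest nuclear-encoded subunit and a site where ATP binds, read 10.72, 10.98, 10.65, 10.62, 10.60, 10.54, 10.57 and 10.51. It fell in the 3 MPTP groups (-0.27, SE 0.072, limma adjusted p = 0.0220) and was not called with MPTP alone (-0.22, adjusted p = 0.118). Its call was kept in 12 of 18 alternative settings. Without control replicate 2 the difference was -0.14 (adjusted p = 0.228), and after centring -0.12 (adjusted p = 0.324). Cox5a, the only ubiquitous subunit with a positive difference in the 3 MPTP groups on the probe sets used, read 10.08, 10.28, 10.22, 10.22, 10.02, 10.23, 10.31 and 10.29, for a difference of 0.03. Another probe set of Cox7b gave 0.03 in that comparison, against -0.14 for the one used. Cox7a2l, a relative of Cox7a2, differed by -0.14 (limma adjusted p = 0.143).

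The isoforms of lung and testis were dim and none was called. Cox4i2, the lung and hypoxia form of Cox4i1, read 5.80, 5.94, 5.96, 5.76, 5.77, 5.82, 5.49 and 5.76, for a difference of -0.11 in the 3 MPTP groups. Cox6b2 and Cox8c, both testis forms, read 5.50 to 5.97 and 5.07 to 5.44, with differences of 0.07 and 0.08. The only mitochondrially encoded subunit with a probe set of its own symbol was COX2, which is part of the complex IV core. It read 13.01, 13.03, 12.72, 12.75, 12.57, 12.93, 12.77 and 12.97, lower on every MPTP array than on either control. It was not called with MPTP alone (-0.29, limma adjusted p = 0.109) or in the 3 MPTP groups (-0.24, adjusted p = 0.0862).

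**Figure D2:**
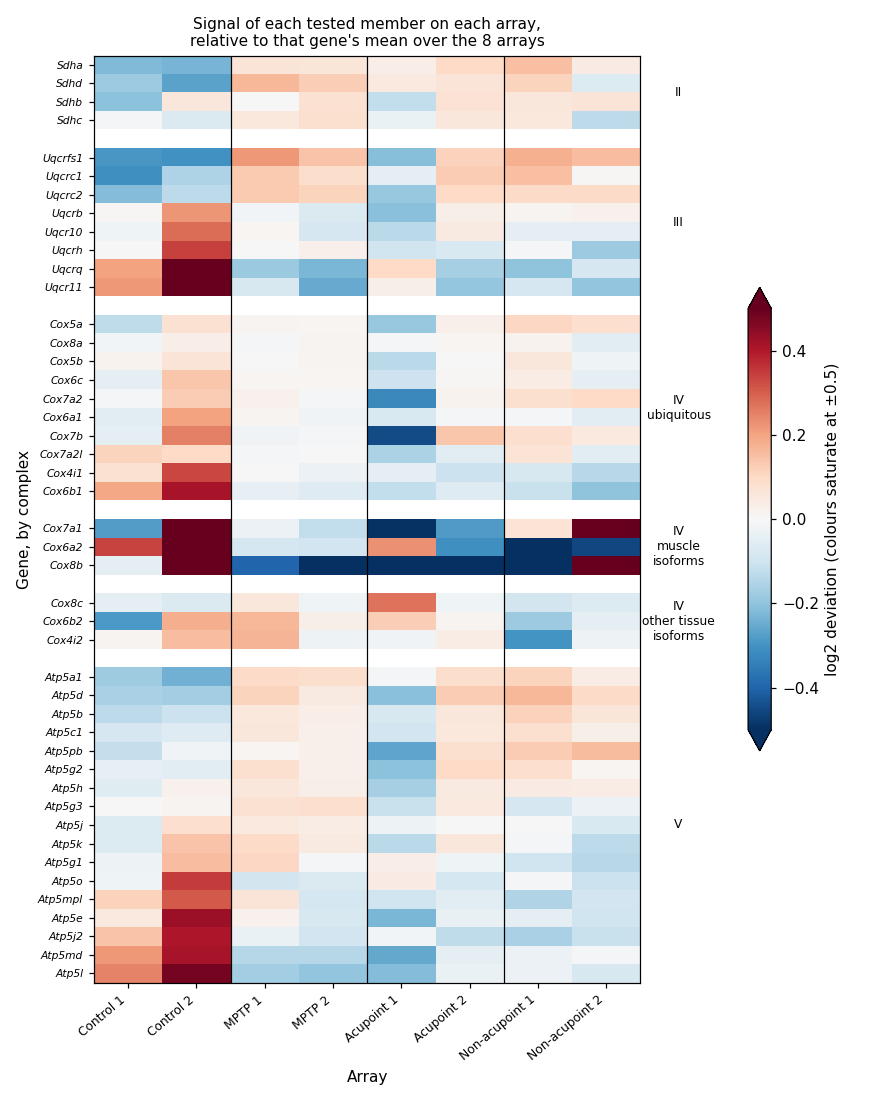
Log2 signal of each of the 45 tested members (vertical axis, by complex) on each of the 8 arrays (horizontal axis), as the deviation from that gene's mean over the 8 arrays; red is above and blue below the mean, and colours saturate at 0.5. Control replicate 2 is the highest array for 25 members and acupoint replicate 1 the lowest for 20.

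The arrays of a group differed from each other in a way the groups do not explain. Control replicate 2 was the highest of the 8 arrays for 25 of 45 members (55.6%), against 16.0% of all genes, and acupoint replicate 1 was the lowest for 20 (44.4%), against 13.7%. Control replicate 2 exceeded control replicate 1 for 36 members. The median gap between the control replicates was 0.19 over the members and 0.13 over all genes, while between the MPTP replicates it was 0.03 and 0.08. Without control replicate 2, which leaves a single control array, the 16 members called in the 3 MPTP groups kept their direction, but most lost their calls. The log2 differences of Sdha, Uqcrc1, Atp5l and Cox6b1 were then 0.30, 0.38, -0.37 and -0.29. With MPTP alone, every call was lost when control replicate 2, MPTP replicate 1 or MPTP replicate 2 was left out, which leaves 1 array in a group. Calls in such fits also depend on the spread between the arrays that remain. With control replicate 2 and acupoint replicate 1 both left out, most calls came back in both comparisons. Lost calls alone therefore do not show which array carries a difference.

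Of the muscle isoforms of complex IV, Cox6a2 fell and Cox7a1 and Cox8b were not called. Cox6a2, the heart and skeletal muscle form of Cox6a1, read 6.47, 7.01, 6.05, 6.04, 6.36, 5.83, 5.64 and 5.68. Both controls lay above every MPTP array, with acupoint replicate 1 next. Cox6a2 fell 1.62-fold with MPTP alone (log2 difference -0.70, SE 0.21, limma adjusted p = 0.0473) and 1.75-fold in the 3 MPTP groups (-0.81, SE 0.17, limma adjusted p = 0.00821). The call with MPTP alone was kept in 8 of 19 alternative settings (adjusted p 0.0154 to 0.269), and that in the 3 MPTP groups in 17 of 18. With control replicate 2 left out, neither was called, at -0.43 and -0.54 (adjusted p = 0.269 and 0.113). Its ubiquitous partner Cox6a1 read 10.16, 10.42, 10.23, 10.20, 10.14, 10.21, 10.21 and 10.16, and differed by -0.10 in the 3 MPTP groups without being called. On the same arrays, the skeletal muscle marker mean given above was also highest on control replicate 2, then control replicate 1, then acupoint replicate 1. The part of those transcripts in the Cox6a2 difference was not tested.

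Cox8b, the muscle and brown fat form of Cox8a, read 6.33, 7.79, 5.98, 5.46, 5.88, 5.71, 5.76 and 8.12. It was high on control replicate 2 and highest on non-acupoint replicate 2, and the replicates of both groups lay far apart. Its differences were the largest in size among the members and were not called, at -1.34 with MPTP alone (SE 0.66, limma adjusted p = 0.203) and -0.91 in the 3 MPTP groups (SE 0.54, adjusted p = 0.256). Without non-acupoint replicate 2 the latter was -1.30 and called (adjusted p = 0.0313), with the lone non-acupoint array assumed to vary like the other groups. Cox8a read 10.32, 10.37, 10.33, 10.35, 10.33, 10.34, 10.35 and 10.28, within 0.09 over all arrays. Cox7a1, the muscle form of Cox7a2, read 7.35, 8.26, 7.60, 7.51, 7.13, 7.35, 7.70 and 8.13, with the same 2 arrays highest. It differed by -0.25 with MPTP alone (SE 0.26, limma adjusted p = 0.55) and by -0.24 in the 3 MPTP groups (SE 0.21, adjusted p = 0.449), and the value turned on the control arrays. Without control replicate 2 it was 0.20 and 0.22, and without control replicate 1 it was -0.71 and -0.70. Each of these values sets the MPTP arrays against a single control array. Cox7a2 read 9.82, 9.96, 9.85, 9.82, 9.51, 9.85, 9.91 and 9.93.

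The array with the highest Cox8b, non-acupoint replicate 2, also stood apart in transcripts of brown fat. Ucp1, the uncoupling protein that defines brown fat, read 7.88 there and 3.77 to 4.35 on the other 7 arrays. The mean of 3 tested brown fat markers (Ucp1, Cidea and Dio2) was 5.41, 5.68, 6.06, 6.11, 5.80, 6.02, 6.27 and 8.04, and that of the fat markers Plin1 and Fabp4 was 7.86 there and 4.56 to 5.14 elsewhere. Another listed brown fat marker, Elovl3, lay below the limit for testing and did not stand apart, at 4.62 there and 3.57 to 4.51 elsewhere. Adipoq, made by fat cells and below the limit for testing, read 7.39 there and 3.37 to 4.15 elsewhere. The skeletal muscle mean on that array was 5.94. Their part in the Cox7a1 and Cox8b values was not tested.

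All 3 muscle isoform genes lie on chromosome 7 in GRCm38.p6, Cox6a2 at 128205435 to 128206366, Cox7a1 at 30184171 to 30186030 and Cox8b at 140898942 to 140900446. Each isoform was read against its partner within an array, which removes any scaling that moves both alike. For Cox6a2 minus Cox6a1 this log2 signal difference was -3.69, -3.40, -4.18, -4.16, -3.78, -4.38, -4.57 and -4.47, with both controls above all MPTP arrays. For Cox7a1 minus Cox7a2 it was -2.47, -1.69, -2.25, -2.31, -2.37, -2.50, -2.21 and -1.80, with control replicate 1 below 5 of the 6 MPTP arrays. For Cox8b minus Cox8a it was -3.99, -2.58, -4.35, -4.89, -4.46, -4.64, -4.59 and -2.16, with non-acupoint replicate 2 above both controls. Probes of different genes differ in efficiency, so these values compare arrays and not the levels of the isoforms.

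**Figure D3:**
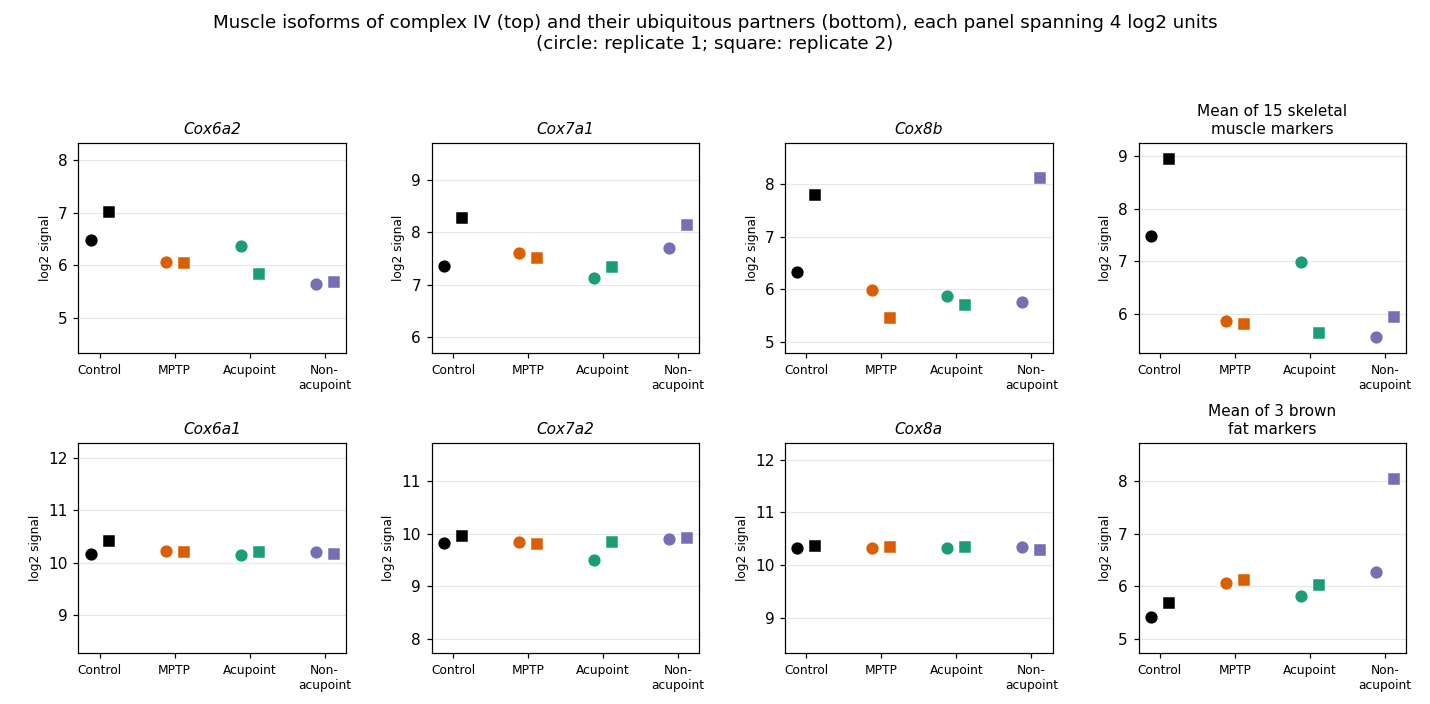
Log2 signal (vertical axis, 4 log2 units in every panel) by group (horizontal axis) for the muscle isoforms Cox6a2, Cox7a1 and Cox8b and the mean of 15 skeletal muscle markers (top), and for the ubiquitous partners Cox6a1, Cox7a2 and Cox8a and the mean of 3 brown fat markers (bottom); circles are replicate 1 and squares replicate 2. Cox8b reads 7.79 on control replicate 2 and 8.12 on non-acupoint replicate 2, while Cox8a stays between 10.28 and 10.37.

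In complex V the alpha subunit rose, the catalytic beta subunit was not called and 5 small subunits fell, a split of 1 higher and 5 lower that became 4 and 1 after centring the arrays. Atp5a1, the alpha subunit, read 12.15, 12.09, 12.43, 12.42, 12.33, 12.42, 12.44 and 12.37, with all 6 MPTP arrays above the controls. It was 1.23-fold higher with MPTP alone (log2 difference 0.30, SE 0.064, limma adjusted p = 0.0146) and 1.21-fold higher in the 3 MPTP groups (0.28, SE 0.052, limma adjusted p = 0.00533). Atp5b, the beta subunit, which alternates with alpha in a ring and holds the catalytic sites, read 12.34, 12.36, 12.52, 12.50, 12.39, 12.53, 12.59 and 12.53. Its arrays did not overlap, but it was not called (0.16 in both comparisons, limma adjusted p = 0.121 with MPTP alone and 0.0543 in the 3 MPTP groups). The rotor and stalk subunits Atp5c1 and Atp5d (gamma and delta) differed by 0.10 and 0.22 in the 3 MPTP groups and were not called. The genes Atp5g1, Atp5g2 and Atp5g3 encode the same mature ring subunit c. They read 9.48 to 9.77, 9.97 to 10.27 and 11.17 to 11.36, with differences of -0.09, 0.06 and -0.01, and none was called.

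The members of complex V called lower were the membrane subunits Atp5l (g), Atp5j2 (f), Atp5md (also known as DAPIT) and Atp5mpl (a small proteolipid), and Atp5e, the epsilon subunit of the central stalk. Atp5l read 9.20, 9.43, 8.77, 8.75, 8.73, 8.91, 8.92 and 8.87, with a wide gap between control and MPTP arrays. It fell 1.46-fold with MPTP alone (log2 difference -0.55, SE 0.099, limma adjusted p = 0.00802) and 1.40-fold in the 3 MPTP groups (-0.49, SE 0.081, limma adjusted p = 0.00318). Its 6 probe sets gave -0.50 to -0.47 in the latter comparison, and near-identical copies of the gene may contribute to their signal. Atp5md read 11.77, 11.96, 11.41, 11.41, 11.29, 11.50, 11.52 and 11.54, without overlap. It fell by 0.46 with MPTP alone (SE 0.088, limma adjusted p = 0.00997) and by 0.42 in the 3 MPTP groups (SE 0.072, limma adjusted p = 0.00356).

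Atp5j2 read 10.69, 10.96, 10.52, 10.46, 10.54, 10.43, 10.39 and 10.44, and fell by 0.34 with MPTP alone (SE 0.092, limma adjusted p = 0.0345) and by 0.36 in the 3 MPTP groups (SE 0.075, limma adjusted p = 0.00784). Atp5mpl and Atp5e were called in the 3 MPTP groups only, although the difference between the comparisons was not tested. Atp5mpl read 10.87, 11.06, 10.81, 10.66, 10.65, 10.69, 10.60 and 10.66 (-0.28, SE 0.069, limma adjusted p = 0.0163). Atp5e read 8.60, 8.98, 8.57, 8.47, 8.32, 8.51, 8.50 and 8.45 (-0.32, SE 0.10, limma adjusted p = 0.0497), so that control replicate 1 was 0.03 above the highest MPTP array. The call of Atp5e was kept in 8 of 18 alternative settings. Of the peripheral stalk, Atp5o differed by -0.22 and Atp5pb by 0.09, and neither was called.

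The length of the members in the genome was compared after the calls were known. With the muscle isoforms apart, the RefSeq span from start to end had a median of 5.99 kb (2.91 to 9.14 kb) for the 9 members called lower in the 3 MPTP groups, 11.05 kb (5.005 to 28.0 kb) for the 6 called higher and 6.75 kb (1.15 to 24.5 kb) for the 27 not called. Over all genes tested, the shortest 25% by span (up to 8.15 kb) had 11.4% called higher and 6.69% lower. The shares were 20.4% and 3.88% in the next 25%, 26.5% and 4.06% in the one after, and 21.5% and 6.69% in the longest 25%, so lower calls were as frequent among the longest genes as among the shortest. Among the brightest 10% of genes the shares from shortest to longest were 30.9% and 9.70%, 49.9% and 2.20%, 60.5% and 2.09%, and 47.2% and 3.47%. The part of gene length in the members' calls was not tested.

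Factors that assemble the complexes were called about as often as all genes. Of 34 assembly factors of complexes II to V tested, 9 were called higher (26.5%) and 0 lower in the 3 MPTP groups, against 19.9% and 5.35% of all genes and 25.2% called in all. Their median was 0.20, and 6 were called higher with MPTP alone. In the 3 MPTP groups the split was 10 higher and 3 lower after another quantile normalization, 5 and 4 after cyclic loess, and 18 and 0 after centring. The median of these factors was 0.18 without control replicate 2 and 0.24 with acupoint replicate 1 left out as well. Both fits have a single control array. Of the 20 for complex IV, 7 rose, among them Taco1, which helps translate the mitochondrial Cox1 message, and Cox15, Higd1a and Cmc1. Taco1 read 7.57, 7.57, 8.28, 8.08, 8.10, 8.14, 8.22 and 8.13, with no overlap, and rose by 0.59 (limma adjusted p = 0.0014). Cox15, which makes heme a, rose by 0.48 (adjusted p = 0.0181), Higd1a by 0.47 (adjusted p = 0.0155) and Cmc1 by 0.42 (adjusted p = 0.0306). Sdhaf3, an assembly factor of complex II, rose by 0.44 (limma adjusted p = 0.0124). None of the 4 complex V factors was called.

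Among 16 regulators of mitochondrial gene expression, 3 were called higher (18.8%, against 19.9% of all genes) and 0 lower in the 3 MPTP groups. Whether any was called depended on the arrays kept. Their median was 0.05 with all arrays, 0.08 without control replicate 2 and 0.09 with acupoint replicate 1 left out as well. Tfam, which packages and transcribes mitochondrial DNA, read 7.35, 7.30, 7.97, 7.93, 7.56, 8.10, 8.18 and 7.92, and rose by 0.62 (SE 0.13, limma adjusted p = 0.0092). Tfb2m, a mitochondrial transcription factor, rose by 0.43 (adjusted p = 0.0266) and Gabpa, the DNA-binding subunit of the ETS factor GABP, by 0.35 (adjusted p = 0.036). The differences of Nrf1, the factor that binds the NRF1 motif, and of the coactivator Ppargc1a were -0.05 and 0.00, and neither was called. The electron carriers and partners Cyc1, Cycs and Ndufa4 were also not called. For comparison, 36 genes with symbols of complex I subunits, Ndufa4 again among them, had 6 called higher (16.7%) and 3 lower (8.33%) in the 3 MPTP groups. In the same comparison, 56 cytosolic ribosomal protein genes had 1 higher (1.79%) and 16 lower (28.6%), against 19.9% and 5.35% of all genes. After cyclic loess these splits were 3 and 7 for complex I and 2 and 38 for the ribosomal genes, and after centring 7 and 1, and 3 and 6. The medians were 0.10 for complex I and -0.06 for the ribosomal genes without control replicate 2. They were 0.17 and -0.04 with acupoint replicate 1 left out as well, again against a single control array.

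Needling was compared with MPTP alone and the needling sites with each other, and no member was called. Limma called 0 of 16026 genes (0%) in each of the 3 comparisons, with unadjusted p under 0.05 for 201 genes in acupoint minus MPTP, 273 in non-acupoint minus MPTP and 604 in acupoint minus non-acupoint. Among the members, 0, 0 and 3 had an unadjusted p under 0.05. These 3 were Cox7a1 (log2 difference -0.67, SE 0.26), Cox7a2 (-0.24) and Atp5pb (-0.23), all lower with acupoint than with non-acupoint needling and all with an adjusted p of 0.936 by limma.

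In acupoint minus MPTP, 37 of the 45 members had a negative difference and 8 a positive one, with a median of -0.06 (all genes -0.01). The arrays of these groups did not overlap for 12 members (26.7%), against 24.3% of all genes. Acupoint replicate 2 lay above replicate 1 for 35 members, so the shift sat mainly on replicate 1. The largest differences outside the muscle isoforms were -0.23 for Uqcrfs1 and 0.17 for Uqcrq. Without acupoint replicate 2, the acupoint group is acupoint replicate 1 alone and its spread is taken from the other groups. That array read lower than the non-acupoint arrays by 0.28 to 0.52 for 6 members that then passed the threshold (Atp5d, Atp5pb, Cox7a2, Cox7b, Uqcrc2 and Uqcrfs1), among 622 genes, which describes this 1 array and not the needling.

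In non-acupoint minus MPTP, 19 members had a positive and 26 a negative difference, with a median of -0.01. The arrays did not overlap for 25 members (55.6%), against 36.3% of all genes. The largest differences were those of the muscle isoforms, 1.22 for Cox8b (SE 0.66), -0.38 for Cox6a2 and 0.36 for Cox7a1, and the Cox8b value rests on the array with the brown fat transcripts. In acupoint minus non-acupoint the median was -0.03, and the arrays did not overlap for 12 members against 28.3% of all genes. A test of any difference between the 4 groups (limma F-test) called 7 members, Sdha, Uqcrq, Cox6b1, Cox6a2, Atp5a1, Atp5l and Atp5md, against 10.8% of all genes. All 7 calls were lost when control replicate 2, either MPTP array or either non-acupoint array was left out. More members were called when either acupoint array was left out, and each of these fits leaves 1 array in a group.

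**Figure D4:**
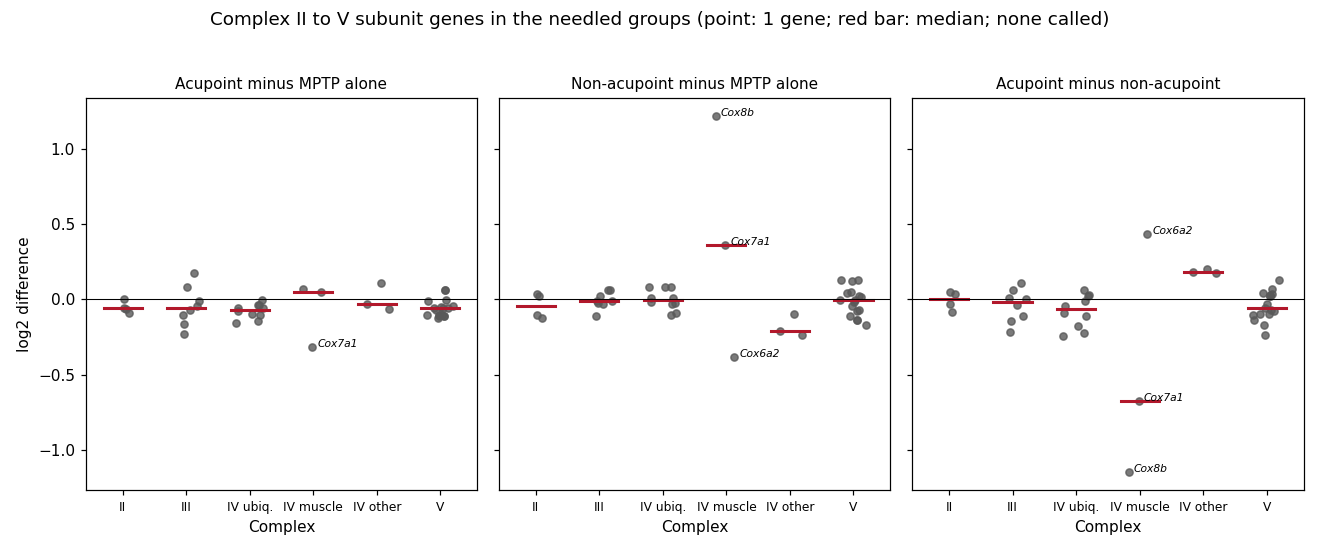
Log2 differences (vertical axis) of the 45 tested members by complex (horizontal axis) for acupoint minus MPTP alone, non-acupoint minus MPTP alone, and acupoint minus non-acupoint; each point is 1 gene and red bars are medians. No member is called, and Cox8b at 1.22 and -1.15 lies farthest from 0.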

How the data were processed

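Labelled cDNA from 8 RNA samples was hybridised to Affymetrix whole-transcript arrays, per the labels' protocols. Per the submitters' processing notes, Affymetrix Expression Console and RMA were used; versions are not given in the sources used here. The log2 signals that the authors deposited cover 35557 probe sets, and their log base was read from their range. No batch could be tested, since no scan dates were used, and RMA signals carry no detection measure. Of 21789 probe sets with 1 gene symbol, 17581 exceeded the 30th percentile of mean signal (4.30), and the brightest per gene was kept, giving 16026 genes. One mean per group was fitted with limma 3.58.1 in R 4.3.3 (4 residual and 5.34 prior degrees of freedom). Array values were printed for members called in any comparison, the extremes of each complex, the catalytic and ring subunits, and the muscle isoforms with their partners. Alternatives were 3 scalings, other filters and variance settings, averaged probe sets, a replicate block and arrays left out. The script was tested on simulated data. The members and gene lists were chosen with earlier results of these data known.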

Additional observations from a re-analysis of the deposited data

Results flagged for a closer look

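The Cox7a1 difference between acupoint and non-acupoint needling was singled out because the 2 needled groups lay on opposite sides of MPTP alone. Both acupoint arrays (7.13 and 7.35) were below both MPTP arrays (7.60 and 7.51), and both non-acupoint arrays (7.70 and 8.13) were above them. The log2 difference of acupoint minus non-acupoint was -0.67 (SE 0.26), which was not called by limma (adjusted p = 0.936 over 16026 genes, unadjusted p = 0.0260). Both differences use the same 2 MPTP arrays.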

How the results depend on the processing

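Counts of calls depended mainly on single arrays. Where an array is left out, its partner is assumed to vary like the other groups. Leaving out each array in turn gave 69 to 4225 genes and 0 to 15 members with MPTP alone, 1404 to 5870 genes and 4 to 20 members in the 3 MPTP groups, 0 to 3 genes in acupoint minus MPTP, 0 to 13 in non-acupoint minus MPTP, 0 to 622 genes and 0 to 6 members in acupoint minus non-acupoint, and 0 to 19 members in the F-test. Without control replicate 2 and acupoint replicate 1 together, MPTP alone had 4072 genes, the needled groups 1 (acupoint) and 2 (non-acupoint) genes against MPTP, and the F-test 14 members. Centring each array gave 4246 genes with MPTP alone, eBayes without a trend 6 members (0 in the F-test), and the fit of only the groups compared 2 genes in non-acupoint minus MPTP. Leaving out each array moved Cox7a1 over -0.71 to 0.20 with MPTP alone and -0.70 to 0.22 in the 3 MPTP groups, reversing it without control replicate 2 and with acupoint replicate 1 also left out (0.20 and 0.25); the cause was not tested. With the replicate number as a block, 10 members and 2210 genes were called with MPTP alone, 14 and 3561 in the 3 MPTP groups, and 3 members in the F-test. Deviations of same-numbered arrays correlated at -0.33 to 0.17 over the 6 pairs of groups. The labels give these samples only a number, and whether same-numbered arrays shared a batch was not tested. Sdha and Atp5l were called in the 3 MPTP groups under all 18 alternatives, and no called member changed direction under any.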
